A study of Saccharomyces cerevisiae with 4 samples.

Results

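The enzymes that remove superoxide and peroxides are represented here by 10 genes of Saccharomyces cerevisiae. They were chosen by name for their role, with earlier results of these data known. They are the catalase genes CTT1 (YGR088W) and CTA1 (YDR256C), the superoxide dismutase genes SOD1 (YJR104C) and SOD2 (YHR008C), the peroxidase genes CCP1 (YKR066C), TSA1 (YML028W), AHP1 (YLR109W) and GPX2 (YBR244W), and the thioredoxin system genes TRX2 (YGR209C) and TRR1 (YDR353W). All 10 were among the 4970 counted regions, and all 10 passed the filter on low counts, as did 4845 of the regions in all. Their synthesis was followed by 4tU-seq, in which cells take up 4-thiouracil and the RNA made during the pulse is purified through its thiol group and sequenced. The groups were BY4741 cells in which SYC1 had been replaced by a kanMX cassette (Δsyc1, 2 libraries) and BY4741 wild-type cells (2 libraries). Syc1 is the subunit that distinguishes the APT complex from the cleavage and polyadenylation factor. Both groups grew in YPD at 30 °C and received 5 mM 4-thiouracil for 6 min, and no oxidant is named in the labels. The comparison asks how synthesis of these RNAs in growing cells differed when SYC1 was absent.

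Superoxide leaks from respiration and is converted by superoxide dismutases to hydrogen peroxide and oxygen. Hydrogen peroxide is then broken down by haem enzymes, the catalases and cytochrome c peroxidase, or by thiol peroxidases, which are recycled by thioredoxin, thioredoxin reductase and NADPH. In budding yeast the transcription factor Yap1, with Skn7, drives many of these genes when peroxide oxidizes it, Msn2 and Msn4 drive a general stress programme that includes CTT1, and Oaf1 with Pip2 drives the genes of peroxisomal fatty acid oxidation, CTA1 among them.

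The Δsyc1 libraries held 26089573 and 22880058 counts over genes, and the wild-type ones 36175417 and 35203133. SYC1 had 1 and 2 counts in Δsyc1 and 743 and 794 in wild-type. The MATa-specific genes STE2 and MFA2 had between 1764 and 27882 counts in each library, the α-specific gene MF(ALPHA)1 had at most 5, and the genes LEU2, URA3 and MET17, deleted in BY4741, had 0 in every library. Replicates differed by more than sampling noise, with a chi-square per degree of freedom of 20.0 between the Δsyc1 libraries and 10.7 between the wild-type libraries. Without a spike-in used here, each change is relative to the rest of its library, and in bulk RNA fewer cells making a transcript and less synthesis per cell cannot be told apart.

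Of the 10 genes, 4 were up-regulated in Δsyc1 (CTA1, CTT1, SOD2 and CCP1) and 1 was down-regulated (TRX2), at an adjusted P-value below 0.1 and a fold change above 1.5 in edgeR. Among all 4845 genes tested, 440 were up-regulated (9.08%) and 395 were down-regulated (8.15%). Without the fold change minimum, 6 of the 10 were higher and 2 were lower in Δsyc1, where 33.5% and 35.5% of all genes were. These numbers were 5 and 3 without normalization factors, 5 and 2 without wild-type replicate 2, 6 and 3 without Δsyc1 replicate 1, and 7 and 1 with the replicate block and an allowance for region length. In the same 6 genes both Δsyc1 libraries lay above both wild-type libraries, and in the same 2 both lay below them, which held for 40.5% and 43.2% of all genes. The median log2 fold change of the 10 genes was 0.38, within a range from −0.59 to 2.31, against −0.02 for all genes tested, whose quartiles were −0.25 and 0.24. The order followed the enzymes' roles in part. Catalases and superoxide dismutases were higher in Δsyc1, and thiol peroxidases lay on both sides of 0. In the thioredoxin system TRX2 was lower and TRR1 undetectably different, but TRR1 was higher in the fits that allowed for region length.

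**Figure D1:**
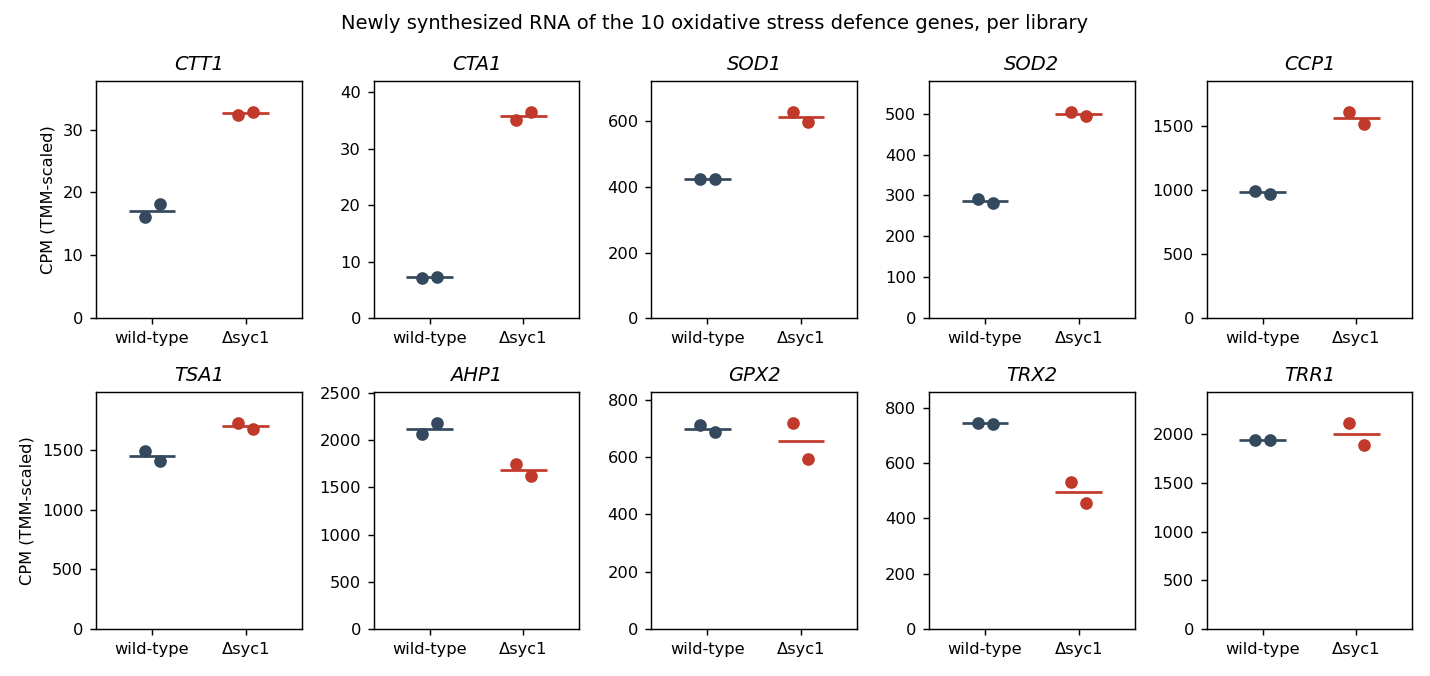
Newly synthesized RNA of each gene in counts scaled to a common library size by TMM (CPM), with 1 point per library, a line at the group mean and each vertical axis starting at 0. The groups separate in 8 of the panels, and overlap in those of GPX2 and TRR1.

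Promoters were read for motifs of Yap1, of Msn2 and Msn4, and of Oaf1 with Pip2. No motif of Skn7 was searched, and only the letters given below were matched, without variants. The window was the 500 bases before the start of each counted region, which the study's annotation places at the transcription start, and both strands were searched. The motifs were the stress response element of Msn2 and Msn4 (STRE, AGGGG), the Yap1 response element (YRE, TTACTAA) and the oleate response element of Oaf1 and Pip2 (ORE, CGGNNNTNA followed by 9 to 12 bases and CCG). Among the 4802 mRNAs tested, 34.8% had at least 1 STRE, 11.4% a YRE and 2.21% an ORE. Of the 10 genes, 8 had an STRE, 6 a YRE and 2 an ORE, and matches to different motifs did not overlap. A match is a string of letters and not a measured binding site. In the stretches printed below, read 5′ to 3′ on the strand of the gene from the RefSeq sequence of assembly R64 (sacCer3), capitals mark the motif matches and are the reason each stretch is shown.

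The catalases had the largest log2 fold changes, CTA1 clearly so, but CTT1 (0.93 ± 0.09 SE) was close to SOD2 (0.80 ± 0.05 SE). With the replicate block and the allowance for region length, SOD2 (0.97) lay above CTT1 (0.88). CTT1 encodes cytosolic catalase T (chromosome VII, 654610 to 656408, plus strand) and CTA1 encodes catalase A of peroxisomes and mitochondria (chromosome IV, 967954 to 969722, minus strand). CTT1 has 3 STREs, the first of them starting 354 bases upstream, and CTA1 has a YRE and an ORE but no STRE.
CTT1, chrVII:654246-654515, plus strand: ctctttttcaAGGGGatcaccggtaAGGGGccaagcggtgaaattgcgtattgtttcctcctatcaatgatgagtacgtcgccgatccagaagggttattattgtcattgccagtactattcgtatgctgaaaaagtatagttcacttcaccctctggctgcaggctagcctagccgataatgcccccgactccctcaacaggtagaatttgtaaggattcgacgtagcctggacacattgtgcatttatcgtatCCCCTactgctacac
CTA1, chrIV:969856-969967, minus strand: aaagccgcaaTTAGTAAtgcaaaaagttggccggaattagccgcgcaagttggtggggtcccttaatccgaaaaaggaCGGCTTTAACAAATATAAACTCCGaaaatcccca
In CTT1 the capitals are STREs, the last of them on the other strand. In CTA1 they are, in order, a YRE on the other strand and the ORE.

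CTA1 had 881 and 781 counts in Δsyc1, and only 268 and 275 in wild-type. Scaled to library size this was 35.1 and 36.5 CPM against 7.07 and 7.37 CPM. Both Δsyc1 libraries were thus far above both wild-type libraries, and the replicates of each group lay close together. The means were 35.8 ± 0.970 and 7.22 ± 0.212 CPM (SD, n = 2 each), a 4.96-fold rise (log2 fold change 2.31 ± 0.09 SE, edgeR adjusted P-value 3.3e-07). In the order of all genes tested from the highest log2 fold change, CTA1 stood at position 22. Its counted region begins inside that of RKM4, a lysine methyltransferase gene on the same strand, with 36 nt in common, and the whole of its 500 base window lies within RKM4. RKM4 itself had 147.5 ± 0.595 CPM in Δsyc1 and 145.4 ± 5.98 CPM in wild-type (log2 fold change 0.02 ± 0.05, edgeR adjusted P-value 0.753), a value whose sign depended on the scaling. The part of shared reads in the value of CTA1 was not tested.

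CTT1 had 811 and 702 counts in Δsyc1 and 608 and 680 in wild-type, or 32.3 and 32.8 CPM against 16.0 and 18.2 CPM. The libraries of the groups did not overlap, and the wild-type replicates were the wider pair. The level rose from 17.1 ± 1.54 to 32.6 ± 0.333 CPM (SD, n = 2 each), which is 1.90-fold (log2 fold change 0.93 ± 0.09 SE, edgeR adjusted P-value 4.62e-05). The calls of both catalases held in every alternative tested. Within each library, the log2 ratio of CTT1 to CTA1 counts was −0.14 ± 0.02 in Δsyc1 but 1.24 ± 0.09 in wild-type (SD, n = 2 each), so that CTT1 RNA was the more abundant in wild-type and the catalase RNAs were near equal in Δsyc1. The difference of −1.38, a 2.60-fold lower ratio, exceeded the spread between replicates. With 2 against 2 libraries an exact permutation test cannot go below 0.333, which is the p it gave (adjusted 0.381 over 8 such pairs of genes).

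The 5 genes whose pattern over the 4 libraries was most like that of CTA1 were TDH1, STF2, TPO2, TPO4 and GID11. Likeness was the Euclidean distance between log2 CPM profiles centred on each gene's mean, and ran from 0.0286 for TDH1 to 0.106 for GID11. TDH1 encodes a glyceraldehyde-3-phosphate dehydrogenase and had a log2 fold change of 2.31. TPO2 and TPO4 encode polyamine exporters (2.27 and 2.33), STF2 a protein first described as stabilizing the inhibited mitochondrial ATP synthase (2.39) and GID11 a substrate receptor of the GID ubiquitin ligase (2.22). With so few libraries the distance reflects mainly the size of the difference between the groups.

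The superoxide dismutases were both higher in Δsyc1. SOD2 encodes the manganese enzyme of the mitochondrial matrix (chromosome VIII, 122817 to 123624, minus strand), and SOD1 encodes the copper and zinc enzyme of the cytosol (chromosome X, 622480 to 623057, minus strand). Each has 1 STRE and 1 YRE, in opposite order along the promoter.
SOD2, chrVIII:123717-123866, minus strand: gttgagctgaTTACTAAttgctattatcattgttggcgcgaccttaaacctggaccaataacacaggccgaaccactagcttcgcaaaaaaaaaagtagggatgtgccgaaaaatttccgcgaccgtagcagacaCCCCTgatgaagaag
SOD1, chrX:623147-623221, minus strand: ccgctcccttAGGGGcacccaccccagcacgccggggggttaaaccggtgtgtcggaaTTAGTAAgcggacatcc
In SOD2 the YRE comes first and starts 232 bases upstream, with the STRE at 107. In SOD1 the STRE comes first, at 154, with the YRE at 106.

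SOD2 was measured at 504 and 494 CPM in the Δsyc1 libraries and 292 and 282 CPM in the wild-type libraries. The gap between the groups was many times the gap between replicates. SOD2 rose 1.74-fold, from 287 ± 6.71 to 499 ± 7.23 CPM (SD, n = 2 each; log2 fold change 0.80 ± 0.05 SE, edgeR adjusted P-value 4.66e-06), and this call too held in every alternative.

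SOD1 stood at 628 and 596 CPM in Δsyc1 and at 424 and 423 CPM in wild-type. All of its Δsyc1 values were above its wild-type values. The difference was significant but under the fold change minimum, at 1.45-fold (612 ± 22.4 against 424 ± 0.441 CPM, SD, n = 2 each; log2 fold change 0.53 ± 0.05 SE, edgeR adjusted P-value 6.15e-05). When the fit allowed for the length of the counted regions, the log2 fold change was 0.78 and SOD1 was called. The last 85 nt of its region overlap URA8, a CTP synthase gene on the other strand, for which edgeR gave a log2 fold change of 0.11 ± 0.06 (adjusted P-value 0.173). The SOD1 to SOD2 ratio was lower in Δsyc1, with a log2 ratio of 0.29 ± 0.03 against 0.56 ± 0.03 in wild-type (SD, n = 2 each; exact permutation p = 0.333).

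CCP1 encodes cytochrome c peroxidase, a haem enzyme of the mitochondrial intermembrane space (chromosome XI, 566022 to 567218, minus strand). Its window holds a single STRE, 128 bases upstream, and neither of the other motifs.
CCP1, chrXI:567332-567356, minus strand: cttggcatccAGGGGccggcccaag
It had 1614 and 1519 CPM in the Δsyc1 libraries and 999 and 969 CPM in the wild-type libraries. No Δsyc1 value came near a wild-type value. The mean rose 1.59-fold, from 984 ± 21.5 to 1566 ± 66.7 CPM (SD, n = 2 each; log2 fold change 0.67 ± 0.06 SE, edgeR adjusted P-value 4.03e-05). This is close to the fold change minimum, and CCP1 was not called when the libraries were left without normalization factors (0.52, with a median over all genes of −0.17) or when DESeq2 tested against a fold change of 1.5 (adjusted P-value 1). The log2 ratio of CCP1 to SOD2, the enzyme of the mitochondrial matrix, was 1.65 ± 0.04 in Δsyc1 and 1.78 ± 0.0022 in wild-type (SD, n = 2 each; exact permutation p = 0.333), without overlap.

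**Figure D2:**
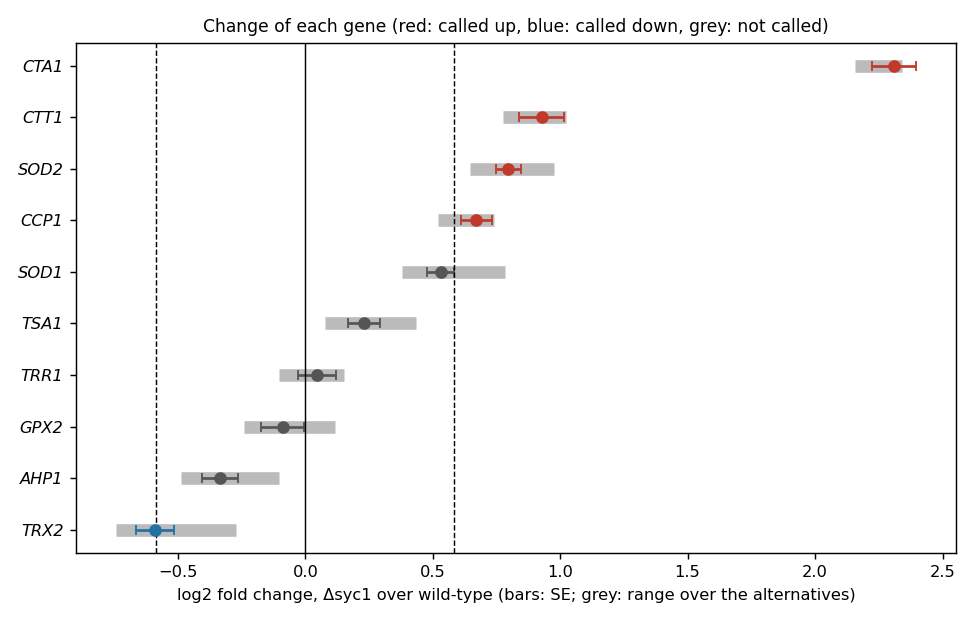
Log2 fold change of Δsyc1 over wild-type for each gene, with its SE as a bar and the range over all alternative analyses as a grey band, and dashed lines at a fold change of 1.5 in either direction. CTA1 (2.31) stands apart from the rest, the bands of CCP1, SOD1 and TRX2 cross a dashed line, and those of TRR1 and GPX2 cross 0.

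The thiol peroxidases changed little, and not in 1 direction. TSA1 encodes the main cytosolic peroxiredoxin (chromosome XIII, 220110 to 220834, plus strand), AHP1 a peroxiredoxin that prefers alkyl hydroperoxides (chromosome XII, 368745 to 369379, plus strand) and GPX2 a thiol peroxidase related to glutathione peroxidases (chromosome II, 707493 to 708203, plus strand). TSA1 had 1732 and 1678 CPM in Δsyc1 and 1498 and 1410 CPM in wild-type. Its groups did not overlap, but the difference was 1.17-fold and under the fold change minimum (log2 fold change 0.23 ± 0.06 SE, edgeR adjusted P-value 0.0134). It was 0.078 without normalization factors (adjusted P-value 0.277) and 0.19 without wild-type replicate 2 (adjusted P-value 0.153), and passed the test in neither, while the fit that allowed for length gave 0.43.

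AHP1 lay on the other side, at 1748 and 1620 CPM in Δsyc1 and 2063 and 2187 CPM in wild-type. Every Δsyc1 value was below every wild-type value, and the difference was 1.26-fold (1684 ± 90.5 against 2125 ± 88.0 CPM, SD, n = 2 each; log2 fold change −0.34 ± 0.07 SE, edgeR adjusted P-value 0.00335), again under the minimum. In the fit that allowed for length the log2 fold change of AHP1 was −0.10 (adjusted P-value 0.0951), and with the replicate block as well the adjusted P-value was 0.177. The log2 ratio of TSA1 to AHP1 was 0.02 ± 0.05 in Δsyc1 but −0.55 ± 0.12 in wild-type (SD, n = 2 each), a 1.48-fold difference (exact permutation p = 0.333). AHP1 has 3 STREs and 1 YRE in its window, more matches than any other of the 10 genes. GPX2 was at 719 and 593 CPM in Δsyc1 and at 709.8 and 687 CPM in wild-type. The Δsyc1 libraries enclosed the wild-type ones and no difference was detected (log2 fold change −0.09 ± 0.09 SE, edgeR adjusted P-value 0.388). This outcome changed with the setting, since GPX2 was lower without Δsyc1 replicate 1 (−0.24, adjusted P-value 0.00709) and without normalization factors (−0.24, adjusted P-value 0.0442), in neither case past the fold change minimum.

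The thioredoxin system included the 1 down-regulated gene. TRX2 encodes a cytosolic thioredoxin, which reduces the thiol peroxidases (chromosome VII, 912831 to 913280, minus strand), and TRR1 encodes the thioredoxin reductase that passes electrons from NADPH to thioredoxin (chromosome IV, 1183252 to 1184309, plus strand). TRX2 carries 2 YREs close together, shown here because Yap1 is the regulator it is best known for, and TRR1 had no match to any of the 3 motifs in its window.
TRX2, chrVII:913392-913454, minus strand: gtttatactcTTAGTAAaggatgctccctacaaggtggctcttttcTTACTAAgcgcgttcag
The first YRE, on the other strand, starts 164 bases upstream and the next starts at 128. Both lie within the counted region of YGR210C, the gene upstream.

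TRX2 had 13323 and 9741 counts in Δsyc1, but 28255 and 27657 in wild-type, which is 531 and 455 CPM against 745 and 741 CPM. The wild-type libraries were nearly equal, while Δsyc1 replicate 2 was well below replicate 1. TRX2 fell 1.51-fold, from 743 ± 2.98 to 493 ± 53.7 CPM (SD, n = 2 each; log2 fold change −0.59 ± 0.07 SE, edgeR adjusted P-value 0.000226). Its size put this call at the edge of the fold change minimum. Without Δsyc1 replicate 2 the log2 fold change was −0.49, and in the fit that allowed for region length it was −0.27, and in neither was TRX2 called. The TRX2 region, the shortest of the 10 at 450 nt, shares 93 nt with SER2, a serine biosynthesis gene on the other strand, which had a log2 fold change of −0.06 ± 0.07 (edgeR adjusted P-value 0.436).

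TRR1 was measured at 2119 and 1889.9 CPM in Δsyc1 and 1937 and 1944 CPM in wild-type. The wild-type values fell between the Δsyc1 values, and no difference was detected (log2 fold change 0.05 ± 0.07 SE, edgeR adjusted P-value 0.599). This outcome changed in the fits that allowed for region length, where TRR1 was higher but under the fold change minimum. With the replicate block as well its log2 fold change was 0.15 (edgeR adjusted P-value 0.0699). Of the 10 genes, 8 had a lower CPM in Δsyc1 replicate 2 than in replicate 1, and the catalases were the exceptions. The share of all genes with such a drop is not given here, so nothing particular to these genes is read from it.

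**Figure D3:**
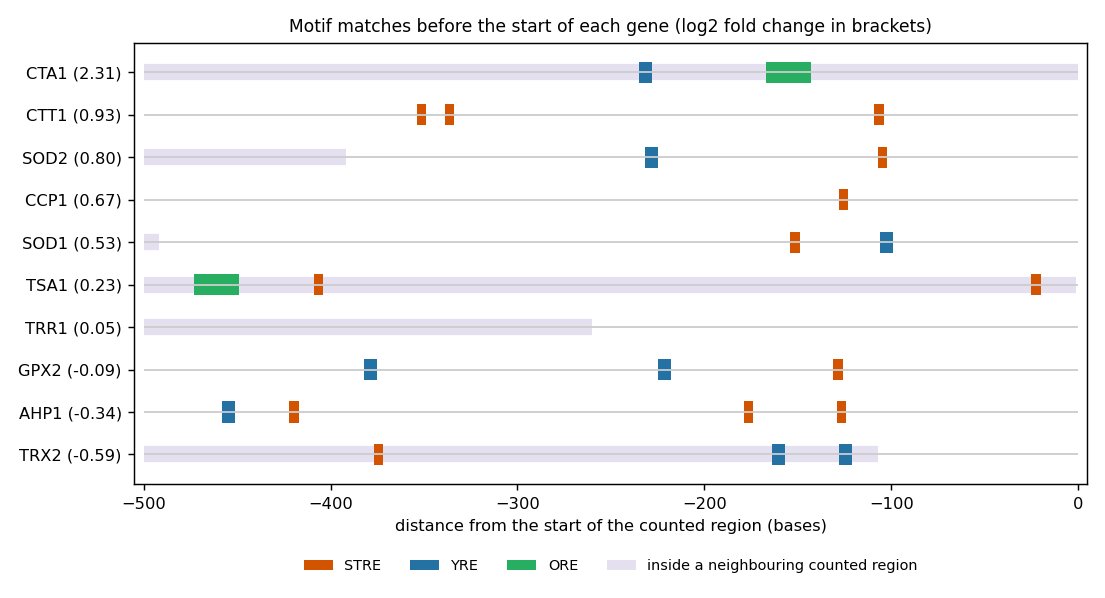
Matches to the STRE, YRE and ORE in the 500 bases before the counted region of each gene, ordered by log2 fold change (in brackets), with shading where the window lies inside a neighbouring counted region. CTA1, at the top, has a YRE and an ORE, CTT1 has 3 STREs, and TRX2, at the bottom, has an STRE and 2 YREs.

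STREs were present in genes that rose (CTT1, SOD2 and CCP1) and in the gene that fell (TRX2). They were also present in SOD1, TSA1, AHP1 and GPX2, which were not called, and were absent from CTA1 and TRR1. YREs were present in CTA1 and SOD2, which rose, in SOD1, which was higher but under the fold change minimum, and in AHP1, GPX2 and TRX2, which had negative log2 fold changes, GPX2 with no difference detected. The pair with an ORE was CTA1 and TSA1, and both matches lie inside a neighbouring counted region. RKM4 covers the whole window of CTA1, and USA1 takes up 499 of the 500 bases of the window of TSA1. These are descriptions over 10 genes, with no test.

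Levels were compared between genes per length, as CPM per kb of counted region. In wild-type the order was AHP1 (3347 ± 139), TSA1 (2005 ± 85.3), TRR1 (1834 ± 5.10), TRX2 (1651 ± 6.61), GPX2 (982 ± 23.0), CCP1 (822 ± 17.98), SOD1 (733 ± 0.762), SOD2 (355 ± 8.31), CTT1 (9.52 ± 0.858) and CTA1 (4.08 ± 0.120), and no neighbours in this order overlapped between libraries. AHP1 ranked 6 among the 4802 mRNAs and SOD2 ranked 195, whereas CTT1 ranked 4521 and CTA1 ranked 4661. The catalases were thus among the least synthesized mRNAs in wild-type cells, and the other 8 genes among the most.

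In Δsyc1 the levels drew together. The highest level per kb was 147-fold above the lowest, against 820-fold in wild-type. CTA1 (20.2 ± 0.548 CPM per kb) passed CTT1 (18.1 ± 0.185), and CCP1 (1309 ± 55.7) moved ahead of TRX2 (1096 ± 119), which no longer differed from SOD1 (1059 ± 38.8) beyond the spread of the libraries. Across the 10 genes the log2 fold change had a Spearman rho of −0.84 with the wild-type level per kb and of 0.79 with the length of the region, so that level and length cannot be told apart as companions of the change. The wild-type level enters the fold change itself, and length enters the level per kb. Over all genes tested rho with length was 0.34. The 4 up-regulated genes had a median length of 1483 nt and the other 6 one of 673 nt.

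The share of the 10 genes was taken from raw counts, without the TMM factors used for CPM, and on that scale the groups overlapped. The TMM factors were 0.962 and 0.936 for the Δsyc1 libraries and 1.048 and 1.060 for the wild-type libraries. Scaling by them would raise the Δsyc1 shares and lower the wild-type shares, so this comparison depends on the scaling. The share of the 10 genes in all raw counts of Δsyc1 was 0.929% (0.926% to 0.933%, Wilson 95% interval) in replicate 1 and 0.834% (0.830% to 0.838%) in replicate 2. In wild-type it was 0.911% (0.908% to 0.914%) and 0.919% (0.916% to 0.922%), and these intervals cover counting error only. The Δsyc1 libraries lay on either side of wild-type, and the means were 0.882% ± 0.0673 and 0.915% ± 0.00590 (SD, n = 2 each; exact permutation p = 1). Within the group, the share of the catalases went from 0.280% ± 0.0207 to 0.738% ± 0.0560 and that of the superoxide dismutases from 8.19% ± 0.0685 to 11.97% ± 0.362. The thioredoxin system went from 30.9% ± 0.0803 to 26.9% ± 0.793, and the peroxidases were at 60.6% ± 0.0326 in wild-type and 60.4% ± 0.375 in Δsyc1. For the catalases, dismutases and thioredoxin system the groups did not overlap, with the smallest p the design allows (exact permutation p = 0.333).

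Several of the 10 genes have a close relative, and the ratio within such a pair does not depend on the scaling between libraries. TSA2, a second cytosolic peroxiredoxin, was much lower than TSA1 but rose from 9.35 ± 0.610 to 38.6 ± 0.513 CPM (SD, n = 2 each; log2 fold change 2.04 ± 0.09 SE, edgeR adjusted P-value 5.13e-07). The log2 ratio of TSA1 to TSA2 was 5.47 in Δsyc1 and 7.28 in wild-type, a 3.52-fold difference and the largest among the 8 pairs. The log2 ratio of TRX2 to TRX1, which encodes the other cytosolic thioredoxin, was 3.71 ± 0.32 against 4.47 ± 0.17, and that of GPX2 to HYR1, the peroxidase that senses peroxide for Yap1, was 4.26 ± 0.33 against 4.93 ± 0.02 (SD, n = 2 each). Neither pair overlapped between the groups. TRR1 and its mitochondrial counterpart TRR2 did overlap, with log2 ratios of 5.62 and 5.73. The exact permutation p was 0.333 for 7 pairs (adjusted 0.381) and 0.667 for TRR1 and TRR2, and the signs of all 8 differences were kept in all alternatives run on them. None of the 50-base stretches in the 10 counted regions recurred exactly elsewhere in the genome. Sharing of reads with these relatives through alignments with mismatches was not tested.

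**Figure D4:**
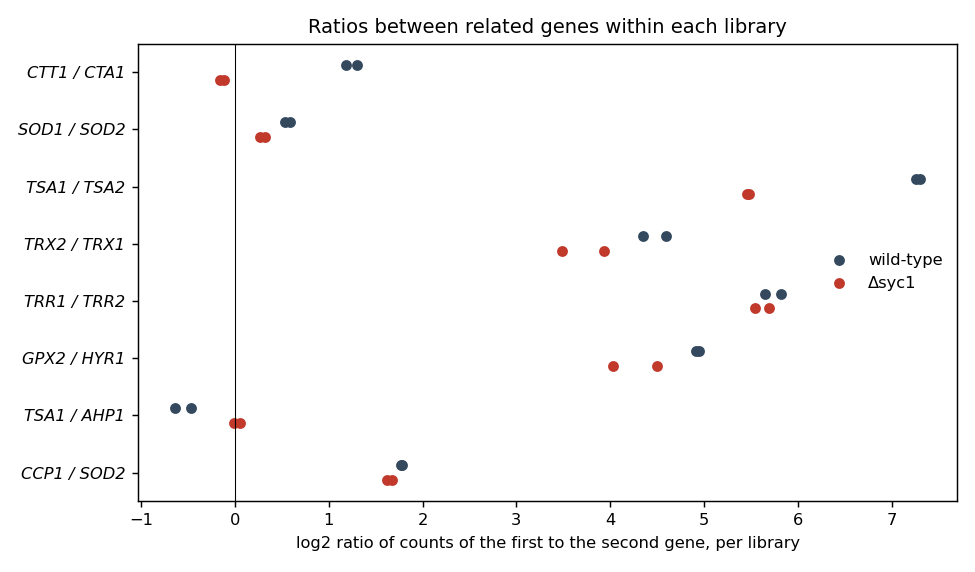
Log2 ratio of the counts of the first to the second gene within each library, for 8 pairs of related genes, with 1 point per library (0.5 was added to each count). The wild-type and Δsyc1 points are apart in all pairs but TRR1 and TRR2, and furthest apart for TSA1 and TSA2 (7.28 against 5.47).

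The other antioxidant and redox genes were read from lists by textbook role, 40 of whose 41 genes were tested. Of these 40, 6 were up-regulated (15.0%) and 1 was down-regulated (2.50%), and the median log2 fold change was 0.18. Over all genes tested these values were 9.08%, 8.15% and −0.02, which also stand beside the list counts below. The lists depended on the allowance for length, under which 13 of the 40 were called up. With that allowance and the replicate block together, which is another setting, 484 of all genes were called up, against 440 without either. The number over all genes under the allowance alone is not given here. Among 7 further peroxiredoxin, thioredoxin and sulfiredoxin genes 2 were up, TSA2 and PRX1, the mitochondrial peroxiredoxin (0.71 ± 0.06 SE, edgeR adjusted P-value 3.68e-05). PRX1 was not called without normalization factors (0.55) or with DESeq2 against a fold change of 1.5. Of 2 methionine sulfoxide reductase genes, MXR1 rose, from 57.7 to 221 CPM (1.94 ± 0.12 SE), and MXR2 had a log2 fold change of −0.06.

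NADPH supply genes, which feed thioredoxin reductase and glutathione reductase, had 3 of 9 up-regulated and a median of 0.49. ZWF1, the first enzyme of the pentose phosphate pathway, rose from 1103 to 1913 CPM (log2 fold change 0.79 ± 0.06 SE), GND2 by 1.12 ± 0.18 and IDP2 by 1.08 ± 0.09 on the log2 scale. GND2 had only 153 and 180 counts in Δsyc1 and 132 and 118 in wild-type. Its call held in 10 of the 11 alternatives that kept every library. Of 12 glutathione and glutaredoxin genes tested (GRX3 was not analysed here), 0 were called in edgeR. Without the fold change minimum 7 were higher and 2 lower, where 33.5% and 35.5% of all genes were. With the allowance for length 5 were called up. The 5 genes that supply copper or manganese to the dismutases had 0 calls and a median of 0.09. Without the fold change minimum 2 of them were higher and 1 lower, beside the same shares of all genes.

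**Figure D5:**
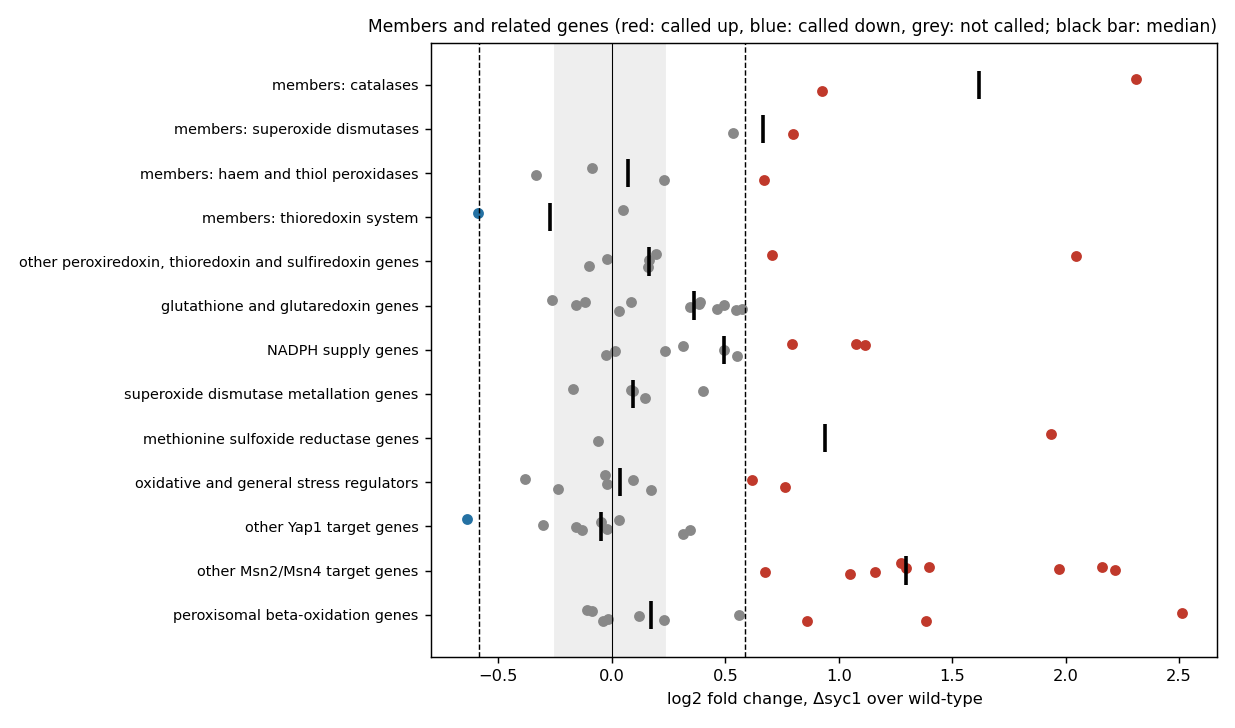
Log2 fold change of each tested gene by list, with the list median as a black bar, dashed lines at a fold change of 1.5 and a grey band between the quartiles of all genes tested (−0.25 and 0.24). The points of the 9 tested genes of the Msn2/Msn4 list lie to the right of the upper dashed line, while the Yap1 list has a median of −0.05.

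Among the regulators themselves, 2 of 8 tested were up-regulated (HAP1 was not analysed here). YAP1 rose from 498 ± 5.35 to 845 ± 61.8 CPM (SD, n = 2 each; log2 fold change 0.76 ± 0.06 SE, edgeR adjusted P-value 2.35e-05), and YAP5, which acts in iron homeostasis, by 0.62 ± 0.06. YAP5 was close to the fold change minimum, and was not called without Δsyc1 replicate 1 (0.57), without normalization factors (0.46), with upper-quartile factors (0.53) or with DESeq2 against a fold change of 1.5. MSN2 (0.09 ± 0.06, edgeR adjusted P-value 0.175) and MSN4 (−0.03 ± 0.07, edgeR adjusted P-value 0.728) showed no detectable difference, and SKN7 was lower by less than the fold change minimum (−0.24 ± 0.05, edgeR adjusted P-value 0.0034). MSN2, MSN4 and SKN7 were named after their values were seen.

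Known targets of the regulators were counted next. Of 10 counted genes of the Msn2/Msn4 list, 9 were tested and all 9 were up-regulated, with a median log2 fold change of 1.30 and a range from 0.67 to 2.22. GRE1 did not reach the filter in either group (0.02 when fitted without a filter), and DDR2 reached it only in Δsyc1, where it is high. The other 8 passed in both groups, and their median was 1.29. SPI1, a cell wall protein gene, rose by 2.22 ± 0.08, DDR2, a gene induced by many stresses, by 2.16 ± 0.19, and SOL4, a 6-phosphogluconolactonase gene, by 1.97 ± 0.16 on the log2 scale. All 9 tested had an STRE, but the study had already singled out stress genes in these libraries, so this list is not independent evidence of its direction. Of 9 Yap1 targets outside the 10 genes, 4 of which also stand in other lists, 0 were up and 1 was down. This was OYE2, an NADPH oxidoreductase gene, which fell from 8094 to 5200 CPM (log2 fold change −0.64 ± 0.09 SE, edgeR adjusted P-value 0.00035). Without Δsyc1 replicate 2 the log2 fold change of OYE2 was −0.58 and it was not called. Without the fold change minimum 2 of these 9 Yap1 targets were higher and 3 were lower, OYE2 among the latter. Of all genes tested, 33.5% were higher and 35.5% lower at that threshold. A YRE was present in 7 of the 9.

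CTA1 was also set beside a list for peroxisomal β-oxidation, the pathway whose hydrogen peroxide it removes. Besides enzyme genes the list holds the regulator genes OAF1 and PIP2 and the peroxisome genes PEX7 and PEX14. Of the 10 genes of this list 8 passed the filter on low counts in both groups. Of these 8, 1 was up-regulated and the median was 0.05, which describes the mixed list and not its enzymes alone. POX1 and POT1 passed only in Δsyc1, where they are high, so their calls give no further support. POX1, the acyl-CoA oxidase that makes the peroxide, had 108 and 121 counts in Δsyc1, but 31 and 34 in wild-type, a log2 fold change of 2.51 ± 0.22 (SE). POT1, the thiolase, had 21 and 26 against 15 and 14 counts (1.38 ± 0.35). PIP2, which encodes the partner of Oaf1 and no enzyme of the pathway, was the call among the 8 and rose by 0.86 ± 0.06. The remaining 7 of the 10 were not called, among them FOX2 (0.12), OAF1 (−0.04) and ECI1. ECI1 was higher by less than the fold change minimum (0.56 ± 0.10 SE, edgeR adjusted P-value 0.00138). Without that minimum 4 of the 10 were higher, POX1 and POT1 included, and 0 were lower. Of all genes tested, 33.5% were higher and 35.5% lower. Of the 10, 6 had an ORE in the window.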

How the data were processed

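Newly synthesized RNA was sequenced from 2 Δsyc1 and 2 wild-type cultures, carried out as biological replicates according to the study. The authors aligned paired-end 50 nt reads to sacCer3 with STAR 2.3.0, used SAMtools to keep proper pairs with a mapping quality of at least 7, and ran HTSeq for the reads of each gene. The deposited values used here are these raw counts, and whether counting used strand is not given in the sources used here. A second deposited table holds the authors' DESeq2 fold changes and p-values and was not used. All 4 count columns matched a sample and 0 were left without one.

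The counts were tested in R 4.3.3 with edgeR 4.0.16. Genes with a mean of at least 30 normalized counts (DESeq2 1.42.0 size factors) in either group were kept, TMM factors scaled the libraries, and the quasi-likelihood model had no term but group. Benjamini-Hochberg adjustment covered all 4845 genes, and calls needed an adjusted p below 0.1 and a fold change above 1.5, as in the study. CPM values use TMM-scaled library sizes, and the SE is the log2 fold change over the square root of the F value, which is approximate. The fits were tested on simulated data. Ratios within pairs were compared by two-sided exact permutation tests of the libraries, and shares likewise. Motifs, regions and sequences were read with Python 3.11.15 from the RefSeq R64 assembly, in which all 10 symbols were matched. No protein sequences were used here. Figures were drawn with matplotlib 3.10.9.

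The genes named are the 10 genes, SYC1, up to 3 called genes of each list with the largest log2 fold change, the partners in the 8 pairs and the 5 genes most like CTA1. Added to these were MSN2, MSN4, SKN7, FOX2, OAF1, ECI1, PEX7, PEX14 and MXR2. So were genes that overlap or neighbour the 10, the strain markers and genes given as not analysed. The regulators, ECI1, PEX7, PEX14 and the neighbours were added after their values were seen. The 10 genes and the lists were chosen with earlier results of these data known. Alternatives were other normalizations and filters, DESeq2, an offset for region length (which allows for the trend of the change with length), blocks by replicate number, other thresholds and leaving out each library.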

Additional observations from a re-analysis of the deposited data

How the results depend on the processing

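CTT1, CTA1 and SOD2 were called up in all 11 alternatives that kept every library and in all 4 that left one out. The number of the 10 genes called up ranged from 3 to 6 over all settings, and was 4 without any one library. CCP1 lost its call with DESeq2 tested against a fold change of 1.5 (0.68) and without normalization factors (0.52). TRX2 was the 1 gene called down, and its call was lost, leaving 0 genes called down, with DESeq2's Wald test (log2 fold change −0.58), DESeq2 against a fold change of 1.5 (−0.58), DESeq2 size factors (−0.58), the length offset (−0.27), the length offset with the block (−0.27) and without Δsyc1 replicate 2 (leave-one-out range −0.71 to −0.49). With no fold change minimum 2 were down. The cause of these moves was not tested. Where a library was left out, the lone library of that group was assumed to vary like the other group.

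Some values near 0 changed sign. GPX2 became 0.12 with the length offset, 0.11 with the block and length offset, and lay between −0.24 and 0.039 when a library was left out. TRR1 became −0.10 without normalization factors and −0.037 with upper-quartile factors, with a leave-one-out range of −0.040 to 0.12. Under the length offset, alone and with the block, MSN2 was −0.046 and −0.045, RKM4 −0.031 and −0.030, and SER2 0.035 and 0.034. Without normalization factors MSN2 was −0.060, RKM4 −0.13 and URA8 −0.044, and RKM4 was −0.063 with upper-quartile factors. Without a library MSN4 ranged from −0.089 to 0.030 and RKM4 from −0.020 to 0.064. All 40 values of the pair ratios kept their sign.

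Over all genes, 229 were called up and 127 down with DESeq2 against a fold change of 1.5, 1623 and 1719 with no fold change minimum, and 655 down without normalization factors. In that last setting the median over all genes was −0.17 rather than −0.02, and down-regulated genes were 68.0% of the calls rather than 47.3%. With upper-quartile factors these were −0.10 and 58.4%. The length offset gave 35.8% and, with the block, 36.3%.

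Replicate numbers are shared between the groups, but nothing says that they mark a common culture or day, and differences between replicates 1 and 2 correlated across genes at −0.18 between the groups. With the replicate block 441 genes were up and 397 down, and 4 and 1 of the 10 genes, with TRX2 at −0.60. Crossed replicate pairs, tried after seeing the data, gave 441 and 398, and also 4 and 1.

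Of the values of the 10 genes, 134 kept direction and side of the threshold, 8 no longer passed, 2 newly passed and 6 changed sign. Of those of the other named genes 503 kept both, 14 no longer passed, 6 newly passed and 13 changed sign. Depth was ample for the 10 genes (at least 268 counts per library), and the number of libraries limited the precision.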

Other observations

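The regions next to the 10 genes were read as well. Of the 20 nearest regions that do not overlap them, 19 were tested, 4 were up-regulated, 1 was down-regulated and 14 were not called, with a median log2 fold change of 0.15. Over all genes tested 9.08% were up-regulated and 8.15% down-regulated, with a median of −0.02. The neighbours named here were chosen after their values were seen. YOX1, which encodes a repressor of cell cycle genes and lies 501 nt downstream of TSA1 on the same strand, had 190 and 139 counts in Δsyc1 and 1649 and 1878 in wild-type. Its log2 fold change was −2.73 ± 0.11 (SE; adjusted P-value of 5.13e-07 in edgeR), while that of TSA1 was 0.23. USA1, just upstream of TSA1, was higher by less than the fold change minimum (0.29 ± 0.05, edgeR adjusted P-value 0.00168).

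YGR210C, 107 nt upstream of TRX2 on the same strand, rose from 328 ± 13.2 to 524 ± 27.03 CPM (SD, n = 2 each; log2 fold change 0.68 ± 0.06 SE, edgeR adjusted P-value 2.85e-05), whereas TRX2 fell. GPT2, which encodes a glycerol phosphate acyltransferase and lies 633 nt from CCP1 on the other strand, upstream of both, rose by 1.24 ± 0.05 on the log2 scale. HSP78, a mitochondrial chaperone gene 1980 nt upstream of CTA1, rose by 1.28 ± 0.08, and RKM4, which lies between them, had a log2 fold change of 0.02. ALG7, 655 nt upstream of GPX2, rose by 0.72 ± 0.07, and GPX2 did not differ detectably.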
